A study of Homo sapiens with 6 samples.

Results

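The interleukin-1 (IL-1) family of cytokines, its receptors and its adaptors were followed in the established melanoma cell line A375, of human origin, after knockdown of the atypical mitogen-activated protein kinase ERK3, which MAPK6 encodes. The siERK3 group received a predesigned small interfering RNA against ERK3, and the siCon group received a commercial negative control siRNA. A single cell line was used, and the sequence of the siRNA against ERK3 was not used here. RNA was taken on day 3 after transfection, and each group had 3 one-colour arrays with 1 log2 value for each probe set. The members were listed by symbol as 4 ligands (IL1A, IL1B, IL18 and IL33), 3 receptor chains (IL1R1, IL1RAP and IL1RL1) and 3 adaptors (MYD88, IRAK1 and IRAK2). Of the 10 listed genes, 9 were measured among 17687 genes in all, each by 1 probe set, and IRAK1 was not analysed here. The list was chosen by measured values of this same siERK3 against siCon difference, so the values of the members are a description and carry no test.

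IL-1 alpha and IL-1 beta are neighbouring inflammatory cytokines that act through the same receptor, which is built from IL1R1 and the shared accessory chain IL1RAP. IL-33 uses IL1RL1, also called ST2, with the same accessory chain, and IL-18 has its own pair of chains. All of these receptors recruit MYD88, which assembles the IRAK kinases and leads to NF-kB and p38 signalling. IL-1 alpha is active as a full-length precursor and works as an alarmin, whereas IL-1 beta and IL-18 are released after cleavage by an inflammasome caspase. Melanoma cells are known to make IL-1 themselves.

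The promoters of IL1A, IL1B and IRAK2 are shown because IL1A and IRAK2 were the members that lay lower by the largest amounts, and IL1B is the direct neighbour of IL1A. The windows come from RefSeq on GRCh38.p14, run from 250 bases before to 50 bases after the annotated start, and are given 5′ to 3′ on the strand of the gene. They lie at chr2:112784444-112784743 on the minus strand for IL1A, chr2:112836730-112837029 on the minus strand for IL1B and chr3:10164669-10164968 on the plus strand for IRAK2. Capitals mark TGANTCA, the binding letters of AP-1 with N for any base.
IL1A: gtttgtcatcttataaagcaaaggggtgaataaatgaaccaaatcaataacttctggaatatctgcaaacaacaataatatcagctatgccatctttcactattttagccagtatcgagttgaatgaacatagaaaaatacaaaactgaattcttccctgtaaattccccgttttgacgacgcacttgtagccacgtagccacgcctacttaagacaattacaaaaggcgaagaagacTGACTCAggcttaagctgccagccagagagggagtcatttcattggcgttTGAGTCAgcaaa
IL1B: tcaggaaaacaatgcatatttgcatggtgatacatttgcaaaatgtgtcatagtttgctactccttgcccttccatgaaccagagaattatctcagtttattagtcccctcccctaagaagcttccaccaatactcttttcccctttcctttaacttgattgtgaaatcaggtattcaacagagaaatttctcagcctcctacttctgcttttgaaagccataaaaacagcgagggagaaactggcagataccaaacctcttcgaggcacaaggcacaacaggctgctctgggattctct
IRAK2: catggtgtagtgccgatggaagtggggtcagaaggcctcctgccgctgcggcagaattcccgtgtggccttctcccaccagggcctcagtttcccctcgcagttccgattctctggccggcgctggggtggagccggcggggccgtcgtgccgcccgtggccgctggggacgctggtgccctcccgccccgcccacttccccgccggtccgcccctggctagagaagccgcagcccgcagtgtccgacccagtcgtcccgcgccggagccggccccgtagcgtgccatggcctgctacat
The IL1A window held these letters at 2 places, from base -12 to -6 before the start and from base 39 to 45 after it. A second annotated start of IL1A gave an overlapping window with the same 2 places. The IL1B and IRAK2 windows held none. Among the 9 listed members with a RefSeq window, which include IRAK1 and leave out IL18, 3 held the AP-1 letters in at least 1 window, IL1A, IL1RL1 and IRAK1, against 9.37% of 27305 genes with such windows. IL1RL1 held them in 1 of its 2 windows. The 9 members had 15 windows and the 27305 genes 35116, so the comparison is not at an equal number of windows for each gene. The 10-letter NF-kB consensus, searched on both strands, was found in 0 of these 9 members and in 7.09% of the 27305 genes. These are matches of letters within a short window and say nothing of binding.

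The target gene was examined first. MAPK6 had log2 values of 10.54, 10.32 and 10.67 on the siERK3 arrays, against 13.45, 13.55 and 13.62 on the siCon arrays. Its log2 change was -3.03 (SE 0.14), with an adjusted p of 0.000133 in limma. Background was taken as the 95th percentile of the 612 negative control probe sets of each array, which lay between 7.32 and 7.56. Array medians lay between 7.06 and 7.10, and no array repeated another, with r across genes of at most 0.995 between any 2 arrays of a group. The labels do not say whether replicates were separate cultures, so the spread between arrays may be technical, and their number limits the precision. Of the melanoma markers, SOX10 averaged 11.72 in siERK3 and 11.78 in siCon and MITF 9.60 and 9.77, while the pigmentation gene MLANA lay below background on all 6 arrays.

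Among the ligands, both IL-1 genes were above background on all 6 arrays, with IL1A lower in siERK3 and an interval that includes 0 for IL1B. IL1A, the alarmin, had log2 values of 10.87, 11.14 and 10.90 on the siERK3 arrays, against 12.16, 12.31 and 12.15 on the siCon arrays. All siERK3 values lay at least 1 log2 unit below the lowest siCon value, and both groups were tight. The group means were 10.97 ± 0.15 in siERK3 and 12.21 ± 0.09 in siCon (SD, n = 3 each), a log2 difference of -1.24 (SE 0.14) or a 2.36-fold lower signal. In RNA from a whole culture, fewer cells with the transcript and less transcript per cell cannot be told apart.

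IL1B, the inflammasome-processed form, had 11.42, 11.68 and 11.64 on the siERK3 arrays, against 11.28, 11.38 and 11.20 on the siCon arrays. The siERK3 values lay above the siCon values without overlap, but the lowest siERK3 and the highest siCon value were close to each other. The means were 11.58 ± 0.14 in siERK3 and 11.29 ± 0.09 in siCon (SD, n = 3 each), and the log2 difference of 0.29 (SE 0.14) had a 95% interval of -0.02 to 0.60. IL1B was thus not called in either direction, and the difference between the IL1A and IL1B values was not tested.

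The other ligands were below background on all 6 arrays, so their true levels and changes could not be read. IL18 had 6.02, 6.22 and 6.11 on the siERK3 arrays, against 5.42, 5.02 and 6.33 on the siCon arrays. The siCon values were spread widely and enclosed the siERK3 values, and the log2 difference of 0.53 became 0.25 without siCon 2 and 0.90 without siCon 3. IL33, the nuclear alarmin that binds IL1RL1, had 4.21, 4.32 and 4.73 on the siERK3 arrays, against 4.15, 4.84 and 4.57 on the siCon arrays, with overlapping groups.

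**Figure D1:**
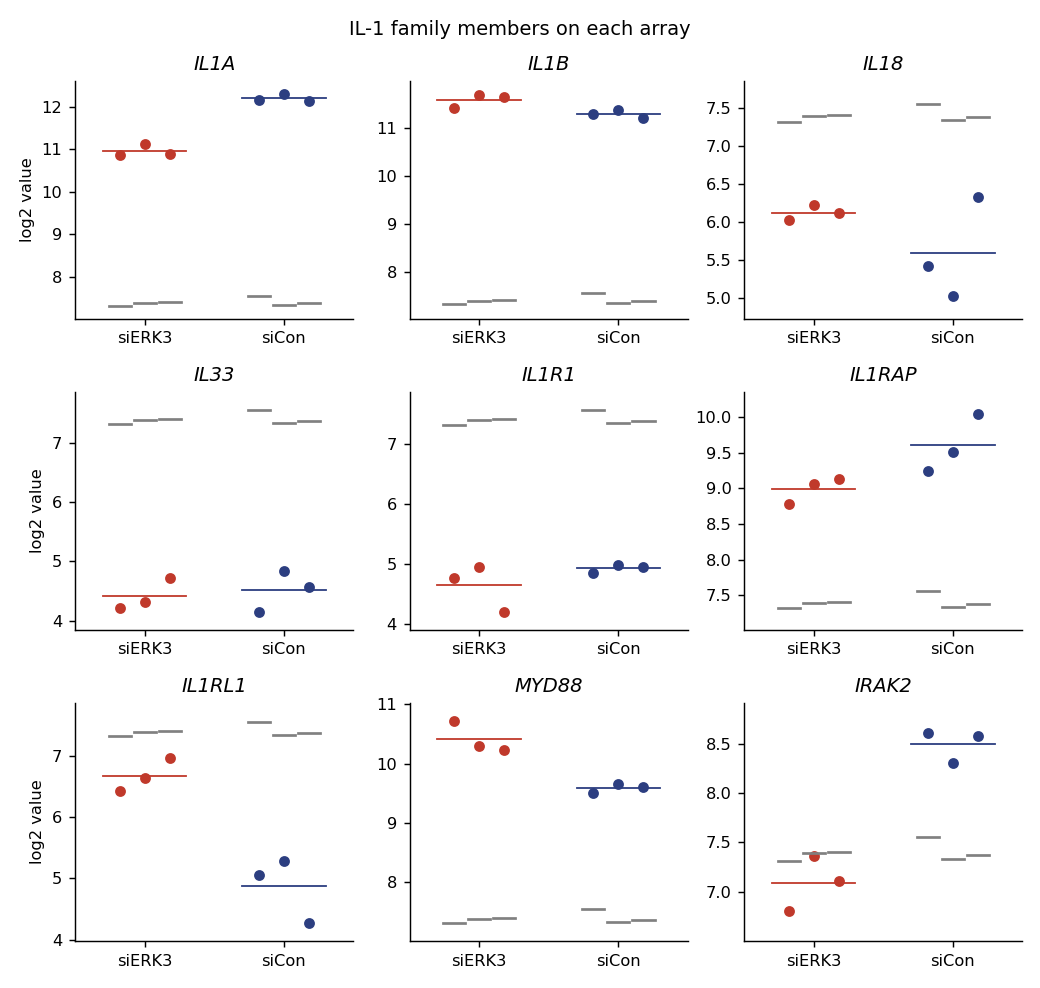
The log2 value (vertical axis, a separate range for each gene) of each measured member is shown for the 3 siERK3 arrays and the 3 siCon arrays, with replicates 1 to 3 from left to right in each group. Points are arrays, coloured lines are group means and grey ticks are the background of each array. IL1A and IRAK2 lie lower in siERK3, and MYD88 and IL1RL1 higher, with IL1RL1, IL18, IL33 and IL1R1 under the grey ticks on every array.

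Among the receptor chains, the shared accessory chain was the one above background. IL1RAP had 8.78, 9.06 and 9.14 on the siERK3 arrays, against 9.25, 9.51 and 10.05 on the siCon arrays. The groups did not overlap, but the spread within siCon was wider than the gap between the groups. The means were 8.99 ± 0.19 in siERK3 and 9.60 ± 0.41 in siCon (SD, n = 3 each), a log2 difference of -0.61 (SE 0.21) that became -0.39 without siCon 3.

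IL1R1, the signalling receptor for both IL-1 forms, had 4.77, 4.96 and 4.21 on the siERK3 arrays, against 4.85, 4.98 and 4.96 on the siCon arrays. All of these lie below background and the groups overlap, so a level of IL1R1 that this array could read was not present in either group. The log2 difference of -0.28 (SE 0.20) became -0.06 without siERK3 3, the array with the lowest value.

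IL1RL1, the IL-33 receptor chain, had 6.43, 6.63 and 6.96 on the siERK3 arrays, against 5.05, 5.29 and 4.28 on the siCon arrays. The groups were clearly apart, yet all 6 values lay below background, and for this reason no fold is given. The means were 6.67 ± 0.27 in siERK3 and 4.87 ± 0.53 in siCon (SD, n = 3 each), a log2 difference of 1.80 (SE 0.26). At this level the difference cannot be read as a change in transcript amount. A positive difference at least as large was found for 5 of the 612 negative control probe sets. Among the 8838 genes above background on 0 arrays it was found for 1, IL1RL1 itself. The 5th and 95th percentiles were -0.984 and 0.967 for the controls, and -0.4 and 0.418 for these genes. IL1RL1 was listed from this contrast, so its place among them is not read further. IL33, the ligand of IL1RL1, was also under background, as described above.

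Among the adaptors, MYD88 lay higher and IRAK2 lower in siERK3. In the main limma fit IRAK2 passed the threshold and MYD88 did not (adjusted p = 0.0644). Both calls changed in some of the other fits given below. MYD88, the adaptor of all IL-1 and most Toll-like receptors, had 10.71, 10.29 and 10.22 on the siERK3 arrays, against 9.51, 9.66 and 9.60 on the siCon arrays. Every siERK3 value lay above every siCon value, with siERK3 1 the highest. The means were 10.41 ± 0.26 in siERK3 and 9.59 ± 0.08 in siCon (SD, n = 3 each), a log2 difference of 0.82 (SE 0.16) or a 1.76-fold higher signal.

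IRAK2, a kinase-like adaptor that sustains signalling after MYD88, had 6.80, 7.36 and 7.10 on the siERK3 arrays, against 8.61, 8.31 and 8.59 on the siCon arrays. It stood above background on all 3 siCon arrays and below it on all 3 siERK3 arrays, so its fold is a bound. The means were 7.09 ± 0.28 in siERK3 and 8.50 ± 0.17 in siCon (SD, n = 3 each). Set against the higher of the background and the measured value on each siERK3 array, the siERK3 signal was at least 2.19-fold lower, and the log2 difference as measured was -1.41 (SE 0.18).

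Of the 9 measured members, 2 passed the limma threshold as lower (adjusted p under 0.05 over all genes), where 0.509% of all genes did, and 1 passed as higher, where 0.447% did, making 3 of 9 against 0.956%. The first were IL1A and IRAK2 and the other was IL1RL1, and since the members were listed from this contrast the counts are not read further. The groups did not overlap for 6 of the 9, with 3 lower and 3 higher in siERK3, against 19.8% of all genes. Above background on all 6 arrays were 4 of the 9, IL1A, IL1B, IL1RAP and MYD88, against 43.7% of all genes. The median log2 difference was -0.10 over the 9 members and 0.00 over all genes. With 1 array left out in turn, IL1A no longer passed once either siERK3 1 or siERK3 3 was dropped (adjusted p of up to 0.0545 in limma), and the log2 differences of the 6 fits lay between -1.32 and -1.18. IRAK2 no longer passed without siERK3 1, siERK3 3, siCon 1 or siCon 3 (highest 0.0687; -1.55 to -1.27), nor IL1RL1 without any 1 of the siERK3 arrays or siCon 1 (highest 0.104; 1.5 to 2.01).

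**Figure D2:**
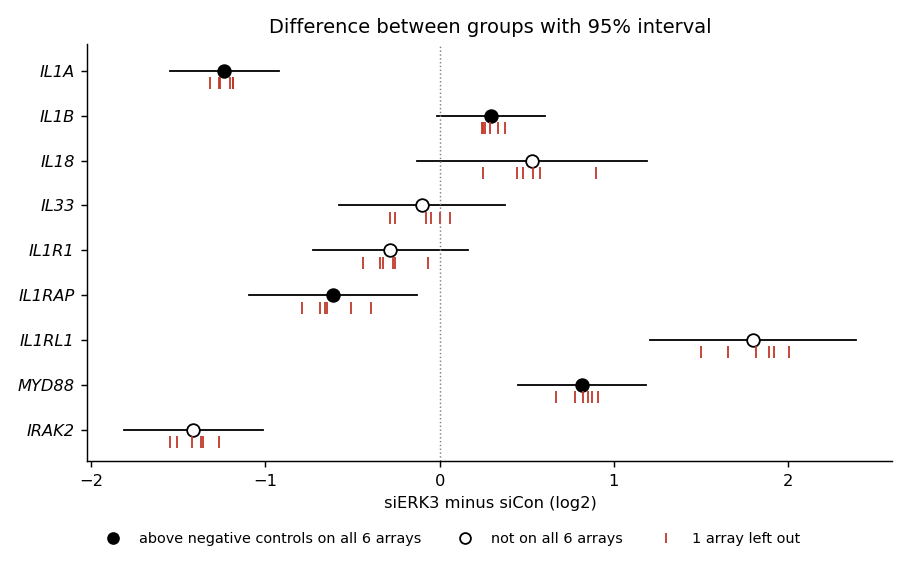
The horizontal axis is the log2 difference of siERK3 minus siCon for each measured member, with its 95% interval from the limma fit as a line. Filled circles mark genes above background on all 6 arrays, open circles the others, and red ticks the differences with 1 array left out. IL1A at -1.24 and IRAK2 at -1.41 stand left of 0, and MYD88 at 0.82 and IL1RL1 at 1.80 to the right, with every tick on the same side as its circle for these 4 genes.

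IL1A and IL1B sit at one end of the IL-1 ligand cluster on chromosome 2, and IL1R1 and IL1RL1 in the receptor cluster on the same chromosome. From CKAP2L beside IL1A to PAX8 beyond IL1RN, 12 genes of the ligand cluster and its flanks were measured, and 3 of them, CKAP2L, IL1A and IL1B, were above background on all 6 arrays. The remaining 9, among them all IL-36 genes and the receptor antagonist gene IL1RN, were above it on 0 arrays. In the receptor cluster with its flanks, 10 genes were measured, and only the flanking kinase gene MAP4K4 was above background, on all 6 arrays. IL1R2, IL1RL2, IL18R1 and IL18RAP around IL1RL1 had log2 differences of -0.09 to 0.39, and none passed limma's test. Of 11 measured neighbours outside the IL-1 family, 0 passed limma's test over all genes, and the median log2 difference was -0.10. An unadjusted p under 0.05 was found for 1 higher and 2 lower, against 6.98% and 6.5% of all genes. The smallest p were those of MAP4K4, at -0.41 (SE 0.13), and POLR1B, a subunit of RNA polymerase I, at 0.52 (SE 0.17), with adjusted p of 0.203 and 0.231 in limma.

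**Figure D3:**
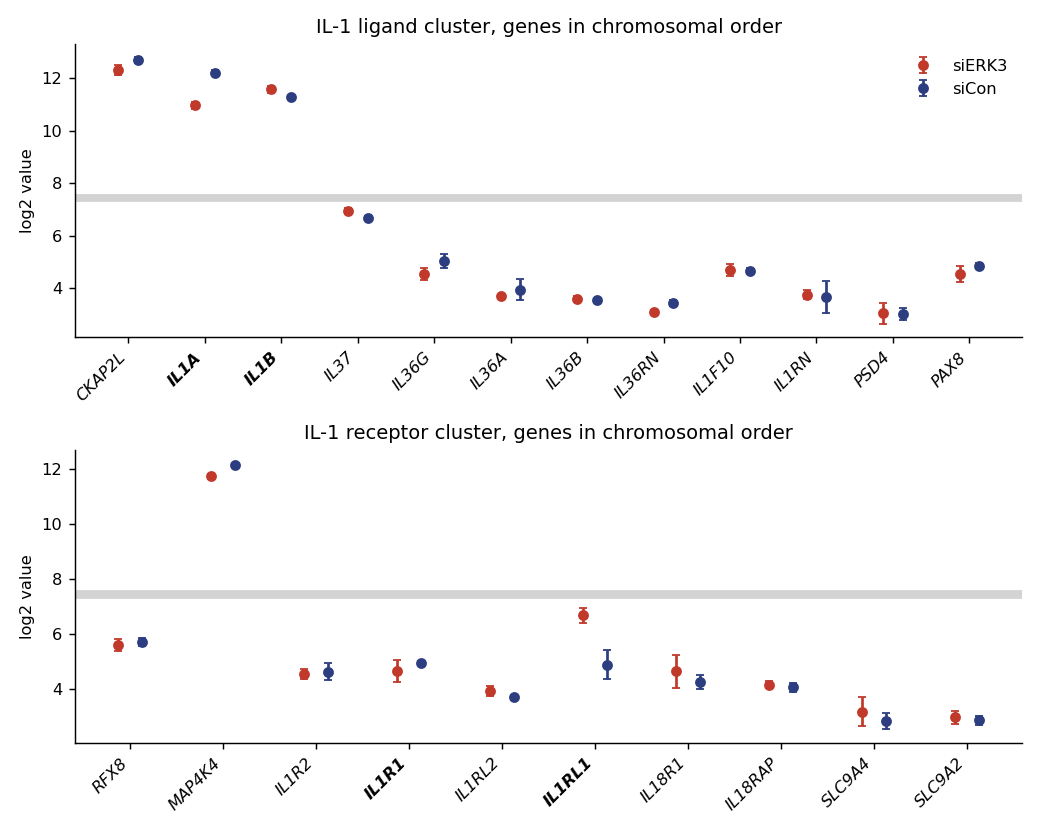
Mean log2 values with SD (n = 3 arrays for each group) are plotted for siERK3 and siCon, with the measured genes of the IL-1 ligand cluster (upper panel) and receptor cluster (lower panel) in chromosomal order and members in bold. The grey band spans the background of the 6 arrays, and levels of different probe sets cannot be ranked against each other. In the upper panel CKAP2L, IL1A and IL1B lie above the band, and in the lower panel MAP4K4 does.

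The other genes of the pathway were read from lists that hold none of the members. For comparison with each list, an unadjusted p under 0.05 was found over all genes for 6.98% higher and 6.5% lower. Of 8 other ligands and soluble antagonists, 0 passed in limma over all genes (unadjusted p under 0.05 for 0 higher and 2 lower), and 7 were above background on 0 arrays. IL36G and IL36RN, the agonist and the antagonist of the IL-36 receptor, had the smallest p, with log2 differences of -0.48 and -0.34, both under background. Of 7 other receptors, 0 passed (unadjusted p under 0.05 for 0 higher and 1 lower). IL1RAPL1, a neuronal relative of the accessory chain, was the one above background on all 6 arrays, at 11.89 ± 0.03 in siERK3 and 12.31 ± 0.11 in siCon (SD, n = 3 each; adjusted p = 0.209 in limma), and IL1RL2, the IL-36 receptor, had a difference of 0.25 under background.

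The measured relay genes outside the member list, which holds MYD88 and IRAK2, showed little difference. Of 18 measured genes from the adaptors to the IkB kinases and p38 activators, 0 passed in limma over all genes, and 0 reached an unadjusted p under 0.05. Only 9 of the 18 were above background on all 6 arrays, and 4 were above it on 0. Their log2 differences ran from -0.32 to 0.30 with a median of 0.12. TAB3 and MAP3K7, which encode a binding partner of the TAK1 kinase and TAK1 itself, had the smallest p, with differences of 0.28 (SE 0.13) and 0.25 (SE 0.15). IRAK3, IRAK4, TAB1 and MAPK14 were not analysed here.

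Genes for processing and release of the cytokines also gave 0 passes among 21 measured in limma over all genes, with a median of -0.07. An unadjusted p under 0.05 was found for 0 higher and 2 lower, against 6.98% and 6.5% of all genes. The smallest p were those of CAST, at -0.39 (SE 0.12), and CAPN2, at -0.32 (SE 0.14), with adjusted p of 0.219 and 0.362 in limma. CAPN2 is a catalytic subunit of calpain, the protease that cleaves the IL-1 alpha precursor, and CAST encodes its inhibitor calpastatin. The inflammasome genes CASP1 and NLRP3, named after their values were seen, were below background on all 6 arrays in these cells, in which IL1B was well above it. AIM2, CASP4 and CASP8 of the same list, also named after their values were seen, were above background on all 6 arrays. Of the 21 measured, 10 were above it on all 6 arrays and 8 on 0.

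Among the pathway lists, only the genes that IL-1 induces through NF-kB held any that passed. Of 25 measured, 2 passed as lower and 1 as higher in limma over all genes, where 0.509% and 0.447% of all genes did. The other 22 did not pass. An unadjusted p under 0.05 was found for 12 lower and 2 higher genes, against 6.5% and 6.98% of all genes. The median log2 difference was -0.30, against 0.00 over all genes, and 18 of the 25 were negative. The groups did not overlap for 12 lower and 3 higher genes, where 9.7% and 10.1% of all genes stood apart in those directions. The list was written with earlier results of these arrays known, so its direction is not independent evidence.

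CCL20, a chemokine for dendritic cells and lymphocytes, had 6.78, 7.31 and 6.90 on the siERK3 arrays, all below background, against 8.27, 8.51 and 8.73 on the siCon arrays. It was at least 2.19-fold lower in siERK3, with an adjusted p of 0.0136 in limma. CCL2, a monocyte chemokine, had 9.98, 9.71 and 9.71 on the siERK3 arrays, against 10.67, 10.55 and 10.74 on the siCon arrays, a 1.80-fold fall (adjusted p = 0.0331 in limma). Both chemokines lay lower in siERK3 without overlap between the groups, as did 9.7% of all genes. IL6, a cytokine of the acute phase, went the other way, by 1.05 with an adjusted p of 0.0237 in limma. However, at 5.50 in siERK3 and 4.45 in siCon it lay below background on all 6 arrays. MMP1, above background on all 6 arrays, also lay higher without overlap, by 0.87, but did not pass (adjusted p = 0.104 in limma). Lower without overlap and above background on all 6 arrays were TNFAIP3 at -0.81, ICAM1 at -0.82 and CXCL1 at -0.74. They did not pass either (adjusted p = 0.0563, 0.0754 and 0.0806 in limma). Of the 25 measured in this list, 12 lay lower and 3 higher without overlap, against 9.7% and 10.1% of all genes. With 1 array left out, CCL20 no longer passed without siERK3 1, siERK3 3 or siCon 3 (highest adjusted p 0.0693 in limma), and CCL2 and IL6 passed in 0 of the 6 fits (highest 0.143 and 0.108).

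**Figure D4:**
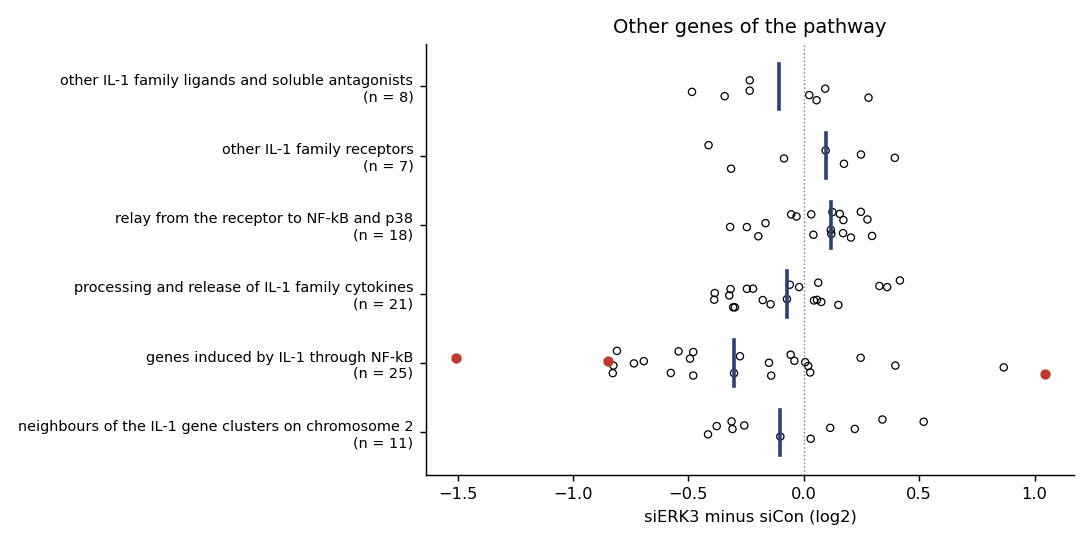
Each circle is a gene of the list named at the left, with n the number measured, and the horizontal axis is its log2 difference of siERK3 minus siCon. Filled red circles passed limma's test over all genes, and blue bars are list medians. The NF-kB list holds the filled circles, with CCL20 at -1.51, CCL2 at -0.85 and IL6 at 1.05, and its median is -0.30.

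The genes whose values ran most like IL1A over the 6 arrays were found by the root mean square difference between values centred on each gene's mean, among 7720 other genes above background on all 6 arrays. The measure contains the group difference itself, so no test is attached. The 5 nearest were NALCN, a sodium leak channel, at 0.108, KPNA5, an importin of nuclear transport, at 0.116, AIDA at 0.116, LTAP1 at 0.143 and FYB1, an adaptor known from T cells, at 0.148 log2 units. All 5 were lower in siERK3, with log2 differences of -1.19 to -1.07. Pearson's correlation as the measure of likeness gave 5 other genes, with 0 shared.

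Markers of cells that are rich sources of IL-1 were read beside these results. Of 13 measured leukocyte markers, LYZ and CD68 were above background on all 6 arrays and 10 on 0, PTPRC, the pan-leukocyte marker, among them. LYZ and CD68 lay lower in siERK3 without overlap, by log2 differences of -0.85 (SE 0.20) and -0.47 (SE 0.13). Neither passed (adjusted p = 0.0965 and 0.152 in limma). NKG7, below background on all 6 arrays, also lay lower without overlap, making 3 of the 13 lower and 0 higher. Over all genes, 9.7% lay lower and 10.1% higher without overlap. The summed log2 level of the 13, most of them unreadable, lay between 77.5 and 78.5 in siERK3 and between 78.3 and 80.8 in siCon. All 7 measured keratinocyte and all 6 endothelial markers were below background on every array. Their summed levels were 29.1 to 29.9 and 28.7 to 29.8 in siERK3, against 28.5 to 30.0 and 28.8 to 30.2 in siCon. Of 8 fibroblast markers, LUM and COL1A2 were above background on all 6 arrays and 5 on 0, with sums of 50.7 to 52.8 in siERK3 and 49.6 to 51.0 in siCon. LUM, a matrix proteoglycan, fell by 0.83 on the log2 scale (adjusted p = 0.0441 in limma; it passed in 0 of the 6 fits with 1 array left out, with adjusted p of up to 0.157), and COL1A2 had a difference of -0.21. PDGFRB and FAP lay higher without overlap, at 0.75 and 0.97 (adjusted p = 0.0631 and 0.154 in limma), with PDGFRB below background on all siCon arrays and FAP on all 6. The part of these markers in the results was not tested.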

How the data were processed

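Total RNA of A375 cells was profiled on Clariom S Pico human arrays, 3 siERK3 and 3 siCon, grouped by sample title. The values used are the log2 values that the authors deposited, 1 for each probe set on each array, and the scale was read from the values. The sources used here do not state how they were summarised and normalized. The highest value of an array lay between 19.1 and 19.4, above 16, the log2 limit of a 16-bit scan. Whether and how far the scale is stretched is unknown, and stretching would alter every fold given here. The platform annotation named 17709 of 24351 probe sets by 1 gene symbol, and the brightest of a gene's probe sets was kept.

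siERK3 was compared with siCon in limma 3.58.1 under R 4.3.3 (lmFit, eBayes, no covariate, no filter on low values), with Benjamini-Hochberg adjustment over 17687 genes and a threshold of 0.05. The fit was tested on simulated data. The members and gene lists were chosen with earlier results of these data known. The naming rule takes MAPK6, all members, each pathway list's genes past the threshold or otherwise its 2 smallest p, the 5 genes most like IL1A, and PTPRC, SOX10, MITF and MLANA. CASP1, NLRP3, AIM2, CASP4, CASP8, MMP1, TNFAIP3, ICAM1 and CXCL1 were named after their values were seen. So were the other marker genes and the other genes of the chromosome 2 clusters. Genes missing from the annotation were not analysed here. Alternatives are given in the closing section.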

Additional observations from a re-analysis of the deposited data

How the results depend on the processing

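Among the member differences, 3 below background ranged widely with 1 array left out, IL18 from 0.25 to 0.90, IL1R1 from -0.44 to -0.06 and IL33 from -0.29 to 0.06; IL33 turned sign without siCon 2 (0.06) and without siERK3 1 (0.00). The replicate block, the variance trend, the filters and averaged probe sets leave a member's difference as it is by construction. Of all genes, 79 were called higher and 90 lower; the calls were 281 and 300 among genes above the median level, 298 and 317 among genes above background on at least 3 arrays, 292 and 336 among genes above it on all 6 arrays (added after seeing the data), 343 and 379 with a mean-variance trend and robust eBayes, and 11 and 22 with the replicate block. Same-numbered arrays shared only a number: over genes above background on all 6 arrays, their deviations from the group means correlated at 0.0587, -0.151 and -0.0323, and 1 of the 6 arrays correlated best with its own number. Leaving out 1 array gave 9 to 30 higher and 13 to 30 lower. Members called were 2 higher with the trend or with array weights, where MYD88 joined IL1RL1. The filters on low values left IL1RL1 untested, and MYD88 was then the 1 called higher. With the replicate block 0 were higher and 1 lower, IL1A, and among genes above background on all 6 arrays, where IRAK2 was not tested, 1 was lower. With 1 array left out, 0 to 1 members were higher and 0 to 2 lower. Pathway genes called lower numbered 9 above the median level, 12 above background on at least 3 or on all 6 arrays and 13 with the trend, which called 2 higher; the replicate block gave 0 higher and 1 lower, and leaving out 1 array 0 higher and 0 to 1 lower. The filters test fewer genes; the cause of the other shifts was not tested. MAPK6 passed in every fit, at -3.11 to -2.94 with 1 array left out. Quantile normalization, subtracted array medians and averaged probe sets kept every count within 1.5 times. At the 99th percentile of the negative controls 2 members were above it on all 6 arrays, against 4 at the 95th.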
